A study of Mus musculus with 24 samples.

Results

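Osteoglycin (Ogn) and 9 other genes of meningeal fibroblasts, namely Dcn, Lum, Fmod, Col1a1, Col1a2, Col3a1, Igf2, Mgp and Aldh1a2, were followed through 18 libraries of hippocampal RNA from Kdm5c mutant mice and their comparison groups. The 10 genes were given as a list of symbols, out of 47069 gene IDs in each count table. Each matched 1 Ensembl ID, and all 10 passed the filter on low counts in both fits. The list was chosen by the low level of Ogn in KO and in ifKO hippocampus, with the CPM of all 18 libraries in view. The values in untreated KO and in ifKO are therefore given as a description, and the tests after novelty are no independent evidence that Ogn is lower. The question was whether the level of Ogn followed that of the other meningeal genes from library to library or stood apart from them.

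Messenger RNA was sequenced from the hippocampus of males 2 to 4 months of age, with tissue of 3 mice pooled per library and 3 libraries in each of 6 groups. Mice with a constitutive null allele of Kdm5c (labelled Kdm5c -/-, KO) and wild-type mice (WT), on a mixed C57/129 background, were taken after 1 h in a box that held toys and plastic tubes (novelty) or untreated. ifKO mice, with the Kdm5c f/f allele and CaMKIIα-creERT2, were compared with control mice in a pure C57BL/6J background, both untreated. In ifKO a tamoxifen-dependent recombinase is driven by a promoter active in excitatory neurons of the forebrain, and the labels do not say whether control mice carried it or were given tamoxifen. Kdm5c encodes a histone demethylase and lies on the X chromosome. The KO and WT libraries came from 1 flowcell and the ifKO and control libraries from another, so each comparison was made within a flowcell.

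The meninges are the membranes around the brain, and their fibroblasts make the collagen-rich matrix that covers its surface and follows its larger vessels. Ogn, Dcn, Lum and Fmod encode small leucine-rich proteoglycans, secreted proteins that bind collagen fibrils and shape their assembly. Col1a1 and Col1a2 encode the chains of type I collagen and Col3a1 that of type III. Igf2 is an insulin-like growth factor, Mgp an inhibitor of calcification, and Aldh1a2 an enzyme that makes retinoic acid. A dissected hippocampus can carry a varying amount of this tissue, and choroid plexus lies next to it.

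Libraries held 16 to 45.6 M counts in genes. Kdm5c itself was read at 74.5 to 85.5 CPM (counts per M counts in genes, scaled by TMM factors) in the 6 KO libraries, against 73.4 to 99.1 CPM in the 6 WT libraries, and at 65.0 to 70.6 CPM in ifKO, against 63.4 to 68.9 CPM in control. Counts summed over all exons need not show a deletion of some of them, so these levels check neither genotype. Markers of hippocampal neurons and glia summed to 8473 to 10698 CPM, the 10 genes to 97.5 to 249 CPM. Across all genes KO novelty 2 and WT novelty 1 lay farthest from their groups (root mean square deviation of 0.262 and 0.236 log2 units, against 0.126 to 0.206 in the other 16 libraries). Markers of choroid plexus summed to 1087 CPM in KO untreated 2 and 837 CPM in control 1, against 151 to 261 CPM in the other 16 libraries. None of its 16 markers was at 0 in either of the high libraries.

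Ogn (ENSMUSG00000021390, chromosome 13, 49608046 to 49624501, plus strand, GRCm38) was read with at least 52 counts in every library. In untreated mice it stood at 3.59, 2.70 and 4.91 CPM in KO, against 13.1, 13.3 and 7.30 CPM in WT. After novelty it stood at 6.59, 4.19 and 2.58 CPM in KO, against 7.06, 15.4 and 11.2 CPM in WT. In the inducible line it stood at 4.26, 3.11 and 4.03 CPM in ifKO, against 11.2, 7.76 and 9.09 CPM in control. Every mutant library lay below every library of its comparison group in all 3 contrasts, with the narrowest gap after novelty, between KO novelty 1 and WT novelty 1. In bulk tissue, fewer cells of a type and less RNA per cell cannot be told apart.

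The fitted log2 fold change of Ogn was -1.57 ± 0.35 (SE, n = 3 libraries per group) in untreated KO and -1.29 ± 0.15 in ifKO, or 0.338 and 0.408 of the level in WT and control. These contrasts chose the gene and carry no test here. In KO after novelty, whose libraries were also in view when the gene was chosen, the log2 fold change was -1.32 ± 0.35, or 0.401 of the WT level (unadjusted p = 0.00235, adjusted p = 0.111, edgeR's quasi-likelihood test, Benjamini-Hochberg adjustment over 16392 genes). The difference did not pass the threshold of 0.05. By the same test it passed without WT novelty 1, the WT library with the least Ogn after novelty (-1.57, adjusted p = 0.0350). It also passed without both libraries that lay farthest from their groups (-1.52, adjusted p = 0.0332). That set again leaves out WT novelty 1, so it is no separate check. In it 4.26% of all tested genes were called, against 1.34% with all libraries and 1.7% without WT novelty 1 alone. With each of the 6 libraries left out in turn the difference ran from -1.76 to -1.02, with adjusted p from 0.0350 to 0.369. The genotype difference after novelty minus that in untreated mice was 0.25 ± 0.50 (adjusted p = 1.00). For novelty against untreated mice the log2 fold change of Ogn was 0.25 ± 0.38 in KO (adjusted p = 0.968) and 0.01 ± 0.32 in WT (adjusted p = 0.998). Whether the differences in KO and in ifKO differ from each other was not tested.

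**Figure D1:**
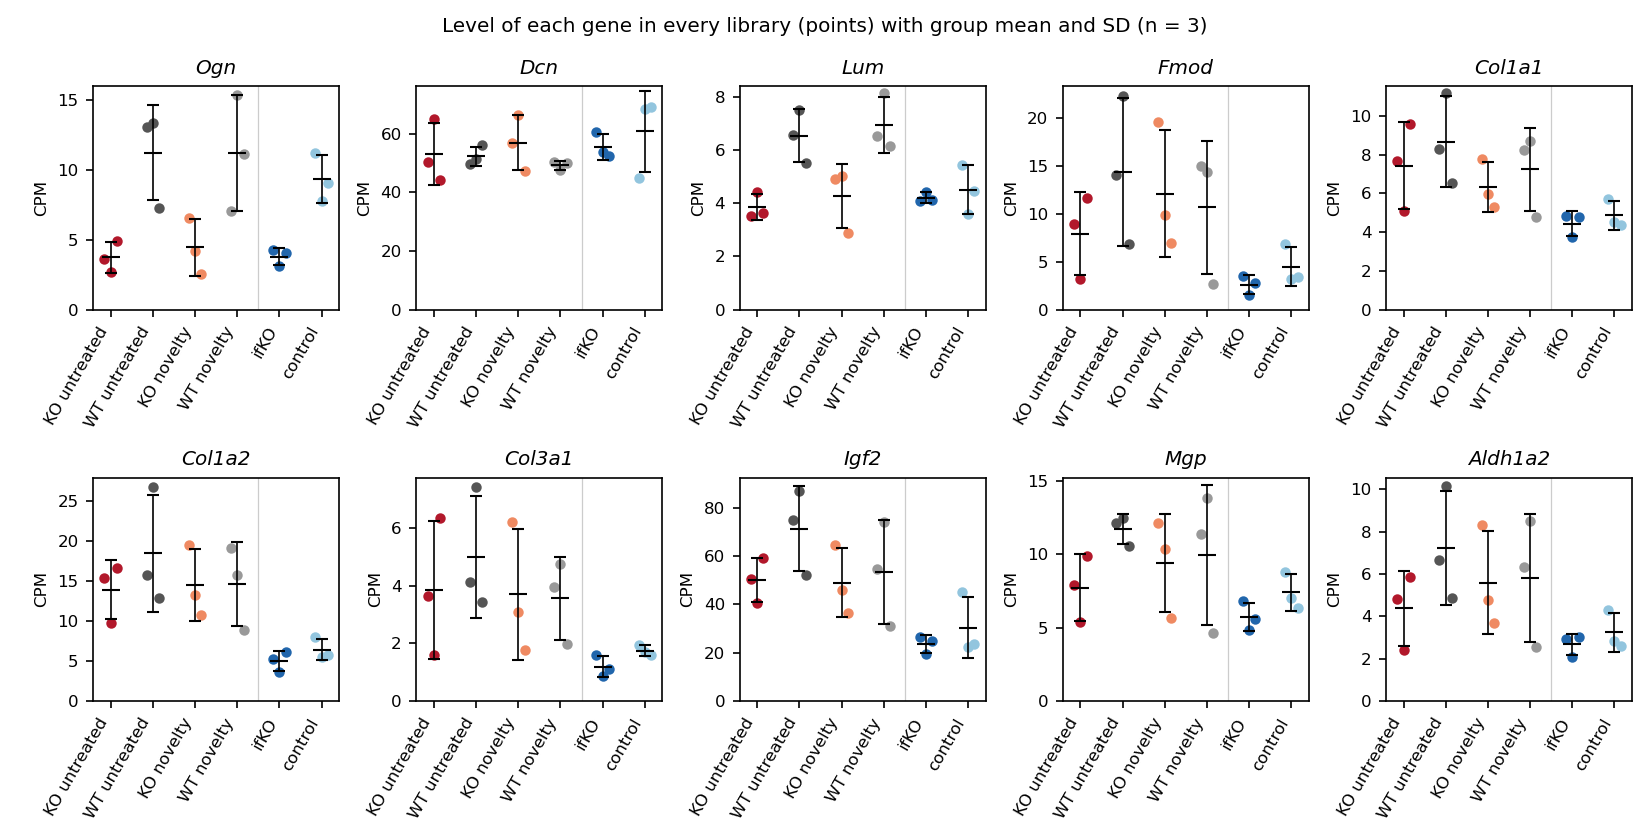
Level of each of the 10 genes in CPM (linear axes from 0) in every library of the 6 groups; points are libraries, bars the group mean and SD (n = 3), and the grey line separates the flowcells. Ogn averaged 3.73 CPM in KO untreated, 4.45 CPM in KO novelty and 3.80 CPM in ifKO, against 11.2 CPM in WT untreated, 11.2 CPM in WT novelty and 9.36 CPM in control, whereas Dcn kept between 44.2 and 69.2 CPM throughout.

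Lum (lumican, chromosome 10, 97565128 to 97572703) was, among the 10 genes, the other proteoglycan whose KO libraries did not overlap those of WT. It stood at 3.52, 4.43 and 3.64 CPM in untreated KO, against 6.58, 7.52 and 5.52 CPM in WT. After novelty it stood at 4.90, 5.04 and 2.88 CPM in KO, against 6.52, 8.15 and 6.15 CPM in WT. The KO libraries lay below all WT libraries untreated and after novelty. In the inducible line it stood at 4.09, 4.44 and 4.11 CPM in ifKO, against 5.45, 3.61 and 4.48 CPM in control, and the groups overlapped. The log2 fold change of Lum was -0.77 ± 0.20 in untreated KO and -0.10 ± 0.14 in ifKO. After novelty it was -0.71 ± 0.20 (unadjusted p = 0.00321, adjusted p = 0.132 by edgeR), and over the alternatives and left-out libraries it ran from -0.88 to -0.50, past the threshold in 4 of them.

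Dcn (decorin; chromosome 10, 97479609 to 97518143), a neighbour of Lum, was the most level of the 10 genes. It stood at 50.4, 65.0 and 44.2 CPM in untreated KO, against 49.6, 51.4 and 56.1 CPM in WT. Its log2 fold change was 0.02 ± 0.13 there, -0.13 ± 0.13 in ifKO and 0.21 ± 0.13 in KO after novelty (adjusted p = 0.782). Fmod (fibromodulin; chromosome 1, 134037254 to 134048277) varied most, by 14.7-fold between its lowest and highest library. It stood at 8.87, 3.15 and 11.6 CPM in untreated KO, against 14.0, 22.3 and 6.85 CPM in WT, and at 19.5, 9.84 and 6.90 CPM in KO after novelty, against 14.9, 14.4 and 2.68 CPM in WT. The groups overlapped in both. Its log2 fold change was -0.83 ± 0.58 in untreated KO, -0.77 ± 0.31 in ifKO and 0.17 ± 0.58 in KO after novelty (adjusted p = 0.986).

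After novelty the 3 collagen genes differed less between genotypes than from library to library. Col1a1 (chromosome 11, 94936224 to 94953042) stood at 7.79, 5.95 and 5.31 CPM in KO after novelty, against 8.25, 8.72 and 4.79 CPM in WT. Col3a1 (chromosome 1, 45311538 to 45349706) stood at 6.23, 3.10 and 1.79 CPM in KO after novelty, against 3.96, 4.76 and 1.97 CPM in WT. The groups overlapped for both, as for Col1a2 (chromosome 6, 4504814 to 4541544), with 10.8 to 19.5 CPM in KO and 8.87 to 19.2 CPM in WT. The log2 fold changes after novelty were -0.20 ± 0.27 for Col1a1, -0.01 ± 0.32 for Col1a2 and 0.05 ± 0.50 for Col3a1, with adjusted p from 0.956 to 0.999. In untreated KO they were -0.21 ± 0.26, -0.40 ± 0.31 and -0.36 ± 0.48, and in ifKO -0.12 ± 0.14, -0.34 ± 0.18 and -0.53 ± 0.21, in the same order of genes. Col3a1 had 1.59, 0.877 and 1.12 CPM in ifKO, against 1.96, 1.69 and 1.60 CPM in control, which just did not overlap.

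Igf2 (chromosome 7, 142650766 to 142666816), Mgp (chromosome 6, 136872435 to 136875823) and Aldh1a2 (chromosome 9, 71215789 to 71296243) varied like the collagens. Aldh1a2 stood at 8.32, 4.80 and 3.67 CPM in KO after novelty, against 6.34, 8.53 and 2.53 CPM in WT. Igf2 ran from 36.2 to 64.5 CPM in KO after novelty, against 31.1 to 74.2 CPM in WT, and Mgp from 5.66 to 12.1 CPM, against 4.60 to 13.8 CPM. Their groups overlapped. The log2 fold changes after novelty were -0.12 ± 0.28 for Igf2, -0.10 ± 0.34 for Mgp and -0.07 ± 0.42 for Aldh1a2 (adjusted p from 0.979 to 0.994). Mgp had 7.89, 5.34 and 9.90 CPM in untreated KO, against 12.1, 12.5 and 10.5 CPM in WT, with no overlap. In untreated mice the log2 fold changes were -0.50 for Igf2, -0.59 for Mgp and -0.69 for Aldh1a2 in KO, and -0.36, -0.35 and -0.27 in ifKO in the same order, given as a description.

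Taken over the list, 0 of the 10 genes passed the test in KO after novelty, where 1.34% of all tested genes did (1.2% as higher and 0.14% as lower). At an unadjusted p under 0.05 there were 2, Ogn and Lum, beside 8.73% of all tested genes, and DESeq2 called 1, Lum, beside 1.93%. The median log2 fold change of the 10 genes was -0.08 there, with 7 of 10 below 0, against 0.00 over all tested genes. Ogn and Lum were the 2 genes whose KO and WT libraries did not overlap, all lower in KO, against 4.66% of all tested genes. None of the 10 genes passed for novelty in KO (0.11% of all genes called) or in WT (0.384%), or for the difference between the genotype effects (0.0%). At an unadjusted p under 0.05 there were also none of the 10, beside 6.71% of all genes for novelty in KO, 11% in WT and 3.43% for the difference. DESeq2 called none of the 10 either, beside 0.427%, 1.33% and 0.0% of all genes in the same order. In the contrasts that chose Ogn the median of the 10 genes was -0.54 in untreated KO, with 9 of 10 below 0. In ifKO it was -0.35, with 10 of 10 below 0, against 0.00 over all tested genes in both contrasts. Without control 1 the median of the 10 genes in ifKO was -0.19, with 7 of 10 below 0. Libraries did not overlap for Ogn, Lum and Mgp in untreated KO (lower; 9.36% of all genes) and for Ogn and Col3a1 in ifKO (lower; 5.83%).

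Per kb of exon and over all 18 libraries, Dcn was highest at 9.37 ± 1.38 CPM per kb (SD), followed by Igf2 at 8.08 ± 3.52 and Mgp at 7.28 ± 2.53, which lay within each other's spread. A middle group held Ogn at 2.84 ± 1.58, Fmod at 2.62 ± 1.88, Aldh1a2 at 2.13 ± 1.06 and Lum at 2.07 ± 0.59 CPM per kb, again within each other's spread. Col1a1 at 0.991 ± 0.320, Col1a2 at 0.981 ± 0.499 and Col3a1 at 0.324 ± 0.201 CPM per kb came last. By group means the place of Ogn in this order differed between groups. At 4.38 CPM per kb in WT untreated it stood level with Fmod at 4.35, and at 3.65 CPM per kb in control it lay above Lum at 1.84 and Fmod at 1.35. At 1.45 ± 0.44 CPM per kb (SD) in KO untreated its mean lay below that of Lum at 1.58 ± 0.20. It also lay below Aldh1a2 at 1.94 ± 0.78 and Fmod at 2.38 ± 1.31, all within each other's spread.

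To ask whether Ogn followed the other 9 genes, its log2(CPM + 0.1) was set against their mean log2(CPM + 0.1) in the same library. Ogn minus that mean was -1.50, -1.35 and -1.31 in untreated KO, against -0.05, -0.44 and -0.53 in WT. After novelty it was -1.16, -1.34 and -1.51 in KO, against -0.90, 0.06 and 0.73 in WT. In the inducible line it was -0.59, -0.56 and -0.55 in ifKO, against 0.37, 0.29 and 0.50 in control. On this scale the mutant libraries of each comparison lay close together and below all libraries of their comparison group, and the WT novelty libraries spread most.

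The differences in Ogn relative to the other 9 genes were -1.05 for untreated KO, -1.30 for KO after novelty and -0.96 for ifKO (pooled SD within groups of 0.196, 0.592 and 0.0761). The mean level of the other 9 genes differed by -0.51 ± 0.40, -0.04 ± 0.55 and -0.32 ± 0.25 (difference ± pooled SD within groups) in the same order of contrasts. Set against 23 further genes of meningeal fibroblasts that are not on the list, among them Slc6a13, Slc22a6, Foxc1, Tbx18 and Crabp2, Ogn differed by -1.17, -1.59 and -1.02. The level of those 23 genes differed by -0.38 ± 0.36, 0.25 ± 0.49 and -0.25 ± 0.21. The level of either set was thus lower in untreated KO and in ifKO by about the spread between libraries. Ogn was chosen by its low level, so its difference beside theirs is a description. Choroid plexus markers lay on opposite sides of 0, with median log2 fold changes of 1.07 in untreated KO (14 of 14 tested markers above 0) and -1.31 in ifKO (16 of 16 below 0). Their sum was highest in KO untreated 2 and control 1, and they were not refitted without these libraries. The lowest sum in untreated KO, 193 CPM, lay below the 209 to 212 CPM of WT. For Ttr, 1 of the markers, every untreated KO library (23.4 CPM or more) lay above every WT library (14.7 CPM or less). Ttr averaged 199 ± 293 CPM (SD) in untreated KO, with 537 CPM in its highest library. How many other markers lay apart in this way is not given here. Without KO untreated 2 the log2 fold change of Ogn was -1.41 in untreated KO, and without control 1 it was -1.15 in ifKO.

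**Figure D2:**
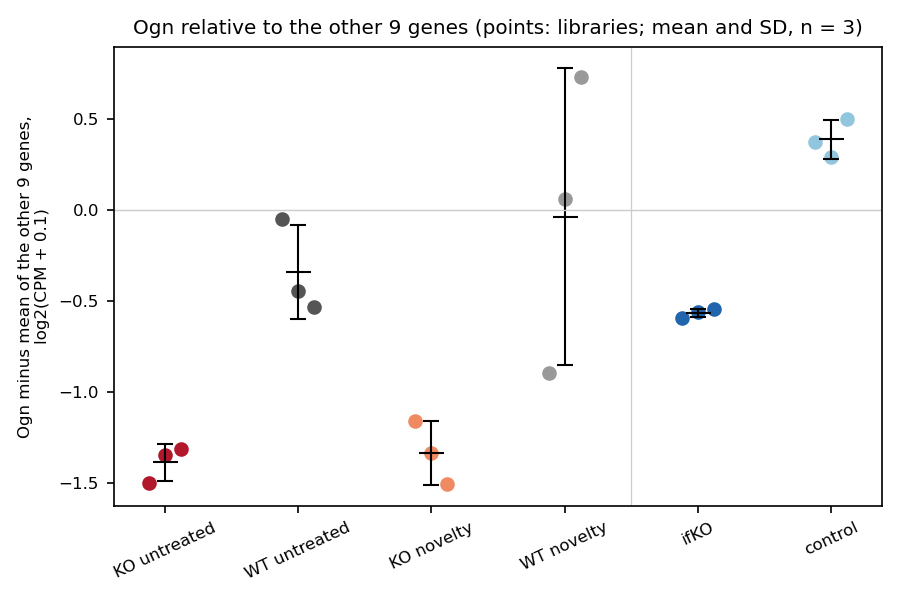
Ogn minus the mean of the other 9 genes, both as log2(CPM + 0.1), in every library; points are libraries and bars the group mean and SD (n = 3). The 3 KO untreated libraries sit from -1.50 to -1.31 and the 3 WT untreated libraries from -0.53 to -0.05, and WT novelty spreads from -0.90 to 0.73.

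Single libraries show how far the values part. WT novelty 3 had the lowest level of the 23 meningeal genes of all 18 libraries (mean log2 of 1.32) and yet 11.2 CPM of Ogn. KO novelty 1 had the second highest (2.64) and 6.59 CPM of Ogn, less than any WT library. Control 1 was high in both, with a level of 2.08 against 1.60 and 1.62 in the other control libraries. This mean of logs weighs all 23 genes alike. Among them are Cdh1, with a lowest count of 0 in WT novelty, and Dpp4 and Cemip, which passed the test after novelty (below). By summed CPM of the 23 genes WT novelty lay at 134 to 206 CPM and ifKO lower, at 119 to 127 CPM. With the level of the 23 genes as a covariate in the edgeR fit, Ogn differed by -1.32 ± 0.32 in untreated KO and by -1.04 ± 0.13 in ifKO, and in KO after novelty by -1.52 ± 0.32 with an adjusted p of 0.0414. With the level of the other 9 genes in its place the value after novelty was -1.35 ± 0.30 (adjusted p = 0.0536). With the 23 genes as covariate 8 of the other 9 genes came nearer to 0 in untreated KO, for example Fmod at 0.02 ± 0.14, Col1a2 at 0.02 ± 0.15 and Aldh1a2 at -0.12 ± 0.11, with Lum at -0.65 ± 0.20, and the exception was Dcn at -0.05 ± 0.14. In ifKO 7 of 9 came nearer to 0, such as Fmod at -0.08 ± 0.20 and Mgp at -0.11 ± 0.13, while Dcn lay at -0.37 ± 0.09 and Lum at 0.10 ± 0.16.

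After novelty the same covariate took all 9 other genes farther from 0. Their median was -0.33 with it and -0.07 without it, and 8 of 9 lay below 0, all but Dcn. Lum lay at -0.78 ± 0.19 (adjusted p = 0.0907), Col1a1 at -0.39 ± 0.11 (adjusted p = 0.183), Igf2 at -0.33 ± 0.09 (adjusted p = 0.140) and Aldh1a2 at -0.35 ± 0.11 (adjusted p = 0.248) in that edgeR fit. These 4 were also at an unadjusted p under 0.05, from 0.00143 for Lum to 0.00772 for Aldh1a2. The 23 genes themselves lay higher in KO than in WT after novelty, by the 0.25 given above.

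**Figure D3:**
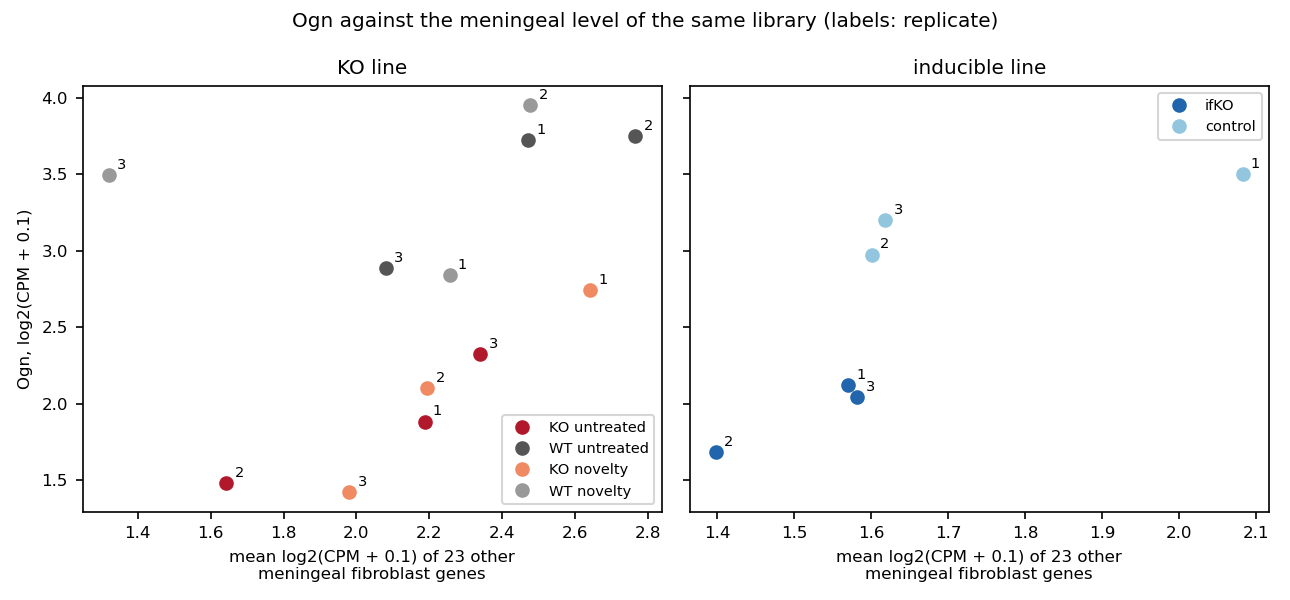
Ogn against the mean level of 23 other meningeal fibroblast genes in the same library, both as log2(CPM + 0.1), with KO and WT on the left, ifKO and control on the right and the replicate number beside each point. At like meningeal levels mutant libraries sit lower in Ogn, and WT novelty 3 lies at the far left with a level of 1.32 and Ogn at 3.49.

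Within groups, with each group's mean taken out, 7 of the genes moved almost as one. Fmod, Col1a1, Col1a2, Col3a1, Igf2, Mgp and Aldh1a2 had a median Pearson r of 0.910 over their 21 pairs (range 0.789 to 0.980, 18 libraries), and r from 0.873 to 0.988 with the level of the 23 other meningeal genes. Aldh1a2 followed that level most closely, with r = 0.988. Ogn followed it with r = 0.613 and Lum with r = 0.494. Dcn did not follow it (r = -0.419), so its level in these libraries does not behave as that of a meningeal marker, against its place on the list. These r describe libraries of 6 groups that share tissue and depth, and the 7 genes were grouped after their values were seen.

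**Figure D4:**
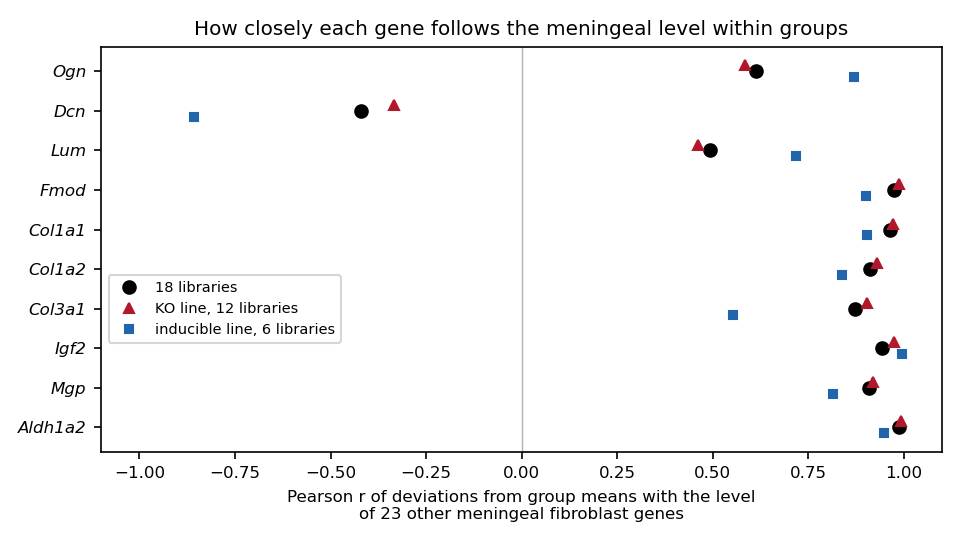
Pearson r between each gene's deviations from its group means and those of the mean level of 23 other meningeal fibroblast genes, over 18 libraries (circles), the 12 KO and WT libraries (triangles, KO line) and the 6 ifKO and control libraries (squares, inducible line). Aldh1a2 sits at 0.988 and Ogn at 0.613 over 18 libraries, and Dcn lies below 0 in all 3.

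Ogn within groups was then set against each of the other 9 genes. Pearson's r was above 0 for 8 of 9, from 0.539 with Col1a2 to 0.719 with Col3a1, and -0.266 with Dcn. By an exact permutation test within groups (46656 orders, two-sided) 0 of the 9 relations passed after Benjamini-Hochberg adjustment, with adjusted p from 0.0807 upward, and 4 had an unadjusted p under 0.05. For Col3a1, r was 0.719 (p = 0.0179, adjusted p = 0.0807) and Spearman's rho 0.717 (p = 0.0155, adjusted p = 0.0349). For Igf2, r was 0.694 (p = 0.0121, adjusted p = 0.0807) and rho 0.759 (p = 0.00544, adjusted p = 0.0349), by the same exact test. By rho 5 of the 9 passed: Col1a1, Col3a1, Igf2, Mgp and Aldh1a2. By rho 0 of 9 passed when KO untreated 1, WT untreated 1, 2 or 3, KO novelty 1 or 2, WT novelty 2, ifKO 2 or control 1 was left out alone. Without the 2 libraries farthest from the median of the other gene, r was 0.630 for Col3a1 and 0.828 for Igf2. Within the KO and WT libraries alone r was 0.717 and 0.683, and within ifKO and control 0.747 and 0.896, and 0 of 9 relations passed in either. The Pearson count hung on single libraries, since 7 of 9 passed without WT novelty 1 and 7 of 9 without WT novelty 3. Without KO untreated 2, WT novelty 1 and KO novelty 2 together, 8 of 9 passed by either measure. That set of libraries still held control 1, and without control 1 alone 0 of 9 passed by either measure. The count thus depends on which libraries are left out.

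Ogn lies in a row of related genes on chromosome 13, and 10 other annotated genes lie at least in part within 200 kb. Cenpp, a centromere protein gene on the minus strand (49464023 to 49652785), spans Ogn, and since no label gives the strand setting of the counting, reads of the 2 genes may not be fully separated. Cenpp stood at 1.38 to 1.64 CPM in KO after novelty, against 1.22 to 1.63 CPM in WT, with a log2 fold change of 0.13 ± 0.23 (adjusted p = 0.969). Of the 10 genes 8 were tested and none passed in KO after novelty, beside 1.34% of all tested genes. Their lowest adjusted p was 0.414 by edgeR, and Ecm2 was the one gene at an unadjusted p under 0.05.

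Apart from Cenpp, the 3 nearest genes on the side before Ogn also encode leucine-rich proteins of the matrix, namely Omd (osteomodulin), Aspn (asporin) and Ecm2. Aspn stood at 1.38, 1.37 and 1.17 CPM in untreated KO, against 2.62, 2.55 and 1.37 CPM in WT, with log2 fold changes of -0.71 ± 0.30 there, -0.48 ± 0.33 in KO after novelty (adjusted p = 0.813) and -0.04 ± 0.17 in ifKO. Ecm2 lay the other way, at 10.4 to 14.4 CPM in untreated KO, against 6.93 to 9.08 CPM in WT, with no overlap. After novelty it had 10.2 CPM or more in KO, against 9.76 CPM or less in WT. In ifKO it had 12.9 CPM or more, against 11.8 CPM or less in control, so these groups did not overlap either. The share of all genes higher without overlap is not given here. The log2 fold changes of Ecm2 were 0.64 ± 0.21 in untreated KO, 0.54 ± 0.22 in KO after novelty (adjusted p = 0.414) and 0.28 ± 0.08 in ifKO. Omd lay between 0.141 and 2.13 CPM with standard errors of 0.46 to 0.71 and gave no direction. Ippk, Nol8 and Iars, at 23.7 to 75.9 CPM, stayed within 0.11 of 0 in all 3 contrasts.

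**Figure D5:**
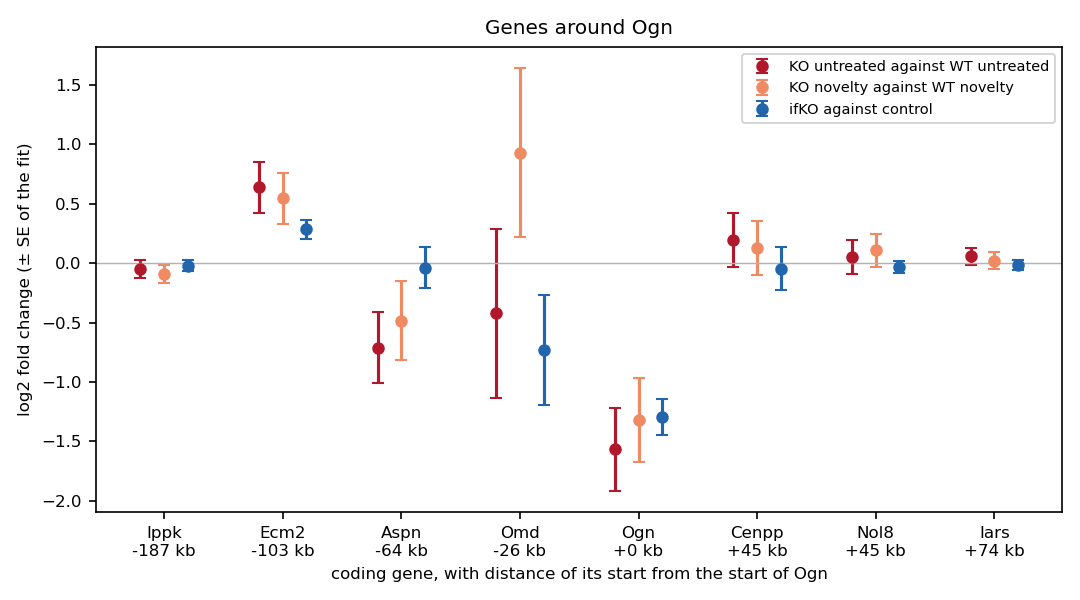
Fitted log2 fold change with its SE (bars; n = 3 libraries per group) of Ogn and the 7 tested coding genes within 200 kb, ordered by the distance of their start from that of Ogn, for KO against WT untreated, KO against WT after novelty and ifKO against control. Ogn lies from -1.57 to -1.29 while Ippk, Cenpp, Nol8 and Iars lie within 0.20 of 0.

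The promoter of Ogn is printed beside that of Fmod, a proteoglycan gene that followed the meningeal level closely (r = 0.975). Both are RefSeq windows of 250 bases before the start (GRCm38.p6, plus strand), Ogn at chr13:49607765-49608014 and Fmod at chr1:134037004-134037253, and RefSeq held windows for 6 of the 10 genes. Capitals mark the string TATAAA, searched on either strand as the letters of a TATA box, and its use as one was not tested. Its matches on the plus and the minus strand overlap. The Ogn window ends before the annotated start of 49608046 given above.
Ogn: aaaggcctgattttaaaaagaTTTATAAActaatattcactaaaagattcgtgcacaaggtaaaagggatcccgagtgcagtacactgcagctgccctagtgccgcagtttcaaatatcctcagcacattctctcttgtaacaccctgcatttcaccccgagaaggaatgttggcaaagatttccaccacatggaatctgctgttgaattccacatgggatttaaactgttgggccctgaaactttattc
Fmod: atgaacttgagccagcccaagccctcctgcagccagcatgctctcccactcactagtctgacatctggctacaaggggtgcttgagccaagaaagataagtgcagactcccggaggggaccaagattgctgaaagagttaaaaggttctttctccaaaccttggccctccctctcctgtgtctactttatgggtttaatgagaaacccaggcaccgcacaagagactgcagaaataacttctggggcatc
The match in the Ogn window starts 227 bases before the start on the plus strand and 229 on the minus strand, and 12.4% of all 32851 windows hold one. Fmod has none. Neither window holds CCAAT (33.8% of all windows, either strand) or CACGTG (6.02%). The Ogn window has 4 CpG and 42% GC, the Fmod window 2 CpG and 51.2% GC, against medians of 6 CpG and 52.4% GC over all windows. These counts describe the letters of the windows.

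Among lists of related genes, the 8 tested of 12 other small leucine-rich proteoglycans had 0 called in KO after novelty (1 at an unadjusted p under 0.05), with a median log2 fold change of 0.11. Of the 23 other meningeal genes 1 rose and 1 fell, where 1.2% of all tested genes were called higher and 0.14% lower. Dpp4, a surface peptidase, rose by 1.19 ± 0.22 (adjusted p = 0.0128), with 1.69, 1.82 and 1.74 CPM in KO, against 0.721, 0.926 and 0.610 CPM in WT. Its difference was 0.23 ± 0.20 in untreated KO, with means of 1.53 ± 0.22 CPM in KO and 1.3 ± 0.21 CPM in WT (SD), and 0.20 ± 0.14 in ifKO, with 2.05 CPM in ifKO and 1.80 CPM in control. Between WT novelty and WT untreated it differed by -0.75 ± 0.23 (adjusted p = 0.212), and the genotype effects differed by 0.95 ± 0.30 (adjusted p = 1.00). Cemip, which takes part in the breakdown of hyaluronan, fell by 0.42 ± 0.07 on the log2 scale (adjusted p = 0.00402), to 44.9 to 46.4 CPM in KO, against 57.6 to 63.4 CPM in WT, and it differed by -0.25 ± 0.07 in untreated KO and -0.06 ± 0.05 in ifKO. The other 21 did not pass and the median of the list was 0.19, with 15 of 23 above 0.

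In KO after novelty 1.34% of all tested genes passed, and the lists below held 1 such gene each. Of 17 other genes of collagen and fibril assembly 1 passed, Loxl1, a lysyl oxidase-like enzyme. Loxl1 rose by 0.92 ± 0.18 (adjusted p = 0.0221), with 5.83, 7.17 and 6.05 CPM in KO after novelty, against 3.68, 3.39 and 2.96 CPM in WT, and it differed by 0.76 ± 0.18 in untreated KO and 0.43 ± 0.23 in ifKO. Of 9 tested genes of the insulin-like growth factor axis 1 passed, Igfbp4, a binding protein that sequesters these factors. Igfbp4 rose by 0.40 ± 0.09 (adjusted p = 0.0348), with 83.0 to 100 CPM in KO, against 62.3 to 75.0 CPM in WT, and it differed by 0.44 ± 0.09 in untreated KO and 0.23 ± 0.05 in ifKO. Of 12 genes of the retinoic acid pathway 1 passed, Stra6, a transporter that takes up retinol. Stra6 rose by 0.78 ± 0.09 (adjusted p = 0.000452), with 27.6, 24.3 and 29.0 CPM in KO after novelty, against 15.2, 16.3 and 15.7 CPM in WT, and it differed by 0.93 ± 0.09 in untreated KO and 1.09 ± 0.10 in ifKO. These genes lay on the other side of 0 from Ogn, and Cemip on the same side.

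Markers of other cells near the surface were read beside these values. In KO after novelty 0 of 10 endothelial, 0 of 10 mural, 0 of 5 tested border macrophage and 0 of 6 ependymal genes passed. Of 5 blood and 14 tested choroid plexus genes 0 passed either, beside 1.34% of all tested genes. At an unadjusted p under 0.05 there were 0, 0, 0, 2, 1 and 0 in the same order, beside 8.73% of all tested genes. Mural markers summed to 216 to 292 CPM in KO after novelty, against 218 to 260 CPM in WT, and border macrophage markers to 8.43 to 15.5 CPM, against 9.15 to 14.0 CPM. In untreated mice mural markers summed to 222 to 299 CPM in KO, against 274 to 357 CPM in WT, with 9 of 10 below 0 in the fit. Their part in the level of Ogn was not tested.

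Over all 18 libraries, with the mean of either flowcell taken out, the genes most like Ogn among 14552 genes with a mean of at least 1 CPM were Ndufs4 (r = 0.878), Mcm6 (r = 0.863), Pgm5 (r = 0.857), Npnt (r = 0.825), Spon1 (r = 0.817), Igfbp5 (r = 0.814), Mrpl33 (r = 0.809) and 2310002F09Rik (r = 0.809). None of them is on the lists of meningeal or choroid plexus genes. This measure holds the genotype differences that chose Ogn and uses the libraries after novelty too, so the differences of these genes between genotypes are given without a test. Of the other 9 genes Lum ranked highest, at 11 (r = 0.798), then Igf2 at 241 (r = 0.595) and Mgp at 296, while Dcn ranked 11069. Mcm6, a subunit of the replicative helicase, averaged 8.38 ± 1.01 CPM in KO after novelty and 13.4 ± 1.77 CPM in WT (SD, n = 3 each), a log2 fold change of -0.68 ± 0.13 (SE). For Npnt, a matrix ligand of integrins, it was -0.53 ± 0.09 and for Spon1 -0.29 ± 0.06. With group means taken out, the most like genes were Mpp6 (r = 0.908), Itgb1 (r = 0.900), Tfpi (r = 0.878), Pln (r = 0.869) and Colec12 (r = 0.868), and Col3a1 ranked highest of the other 9 genes, at 71.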

How the data were processed

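The authors deposited unnormalized counts, 1 file per library and 1 line per Ensembl gene, made from stranded libraries (single reads for KO and WT, read pairs for ifKO and control, per the labels' protocols). STAR 2.5.0c, SAMtools 1.3, HTSeq 0.6.1 and DESeq2 are named with GRCm38 in the submitters' processing notes, without the strand setting or the annotation release. The 24 sample records describe 18 count files. The labels' extraction text speaks of cultures, while tissue and source are given as hippocampus. Of 47069 gene IDs 46574 were given a symbol from GENCODE M21. Reads in no feature (14.7 to 17.2%) and ambiguous reads (0.765 to 1.06%) stayed out of totals and tests.

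Counts were tested in R 4.3.3 with edgeR 4.0.16 (quasi-likelihood test, TMM factors, filterByExpr with a minimum count of 10 and a minimum total of 15, Benjamini-Hochberg over all tested genes, threshold 0.05). The 12 KO and WT libraries were fitted together (16392 genes) and the 6 ifKO and control libraries alone (17367 genes). DESeq2 1.42.0 was an alternative. The edgeR test was also run on simulated counts drawn independently for each gene and library. Its outcome is not given, and no result here rests on it. Each library is a pool of 3 mice, so errors and p-values measure the spread between pools. Log2 levels use a pseudocount of 0.1 CPM. The 10 genes and all lists were chosen with earlier results of these data known. Named are the 10 genes, up to 4 called genes per list and comparison, annotated genes within 200 kb of Ogn, and the 8 (flowcell means removed) and 5 (group means removed) genes most like Ogn. For KO and ifKO in untreated mice no test is read, since the choice used those contrasts, and it also had the libraries after novelty in view. Protein sequences were not used here.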

Additional observations from a re-analysis of the deposited data

How the results depend on the processing

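The log2 fold change of Ogn in KO after novelty kept its direction under all 15 alternatives, from -1.76 to -1.02. It passed the threshold without the low-count filter (-1.33, adjusted p = 8.33e-06), without WT novelty 1 and KO novelty 2 together (-1.52, adjusted p = 0.0332), with the level of the 23 meningeal genes as covariate (-1.52, adjusted p = 0.0414) and without WT novelty 1 (-1.57, adjusted p = 0.0350). It did not pass under the other 11, with adjusted p from 0.0536 to 0.369, DESeq2 included (-1.33, adjusted p = 0.0962). Without the filter 28595 genes were tested, and Ogn stayed near the main value of -1.32. Why its adjusted p fell so far there was not tested. With the 23 genes as covariate the other 9 genes also moved farther from 0, as given above, so the shift was not particular to Ogn. With each library left out in turn the value of Ogn ran from -1.76 to -1.02. The replicate numbers do not pair the libraries (r of same-numbered deviations from -0.199 to 0.309), and with the number as a block Ogn was at -1.32 (adjusted p = 0.159) and 1 of the 10 genes, Lum, was called. For Ogn against WT or control in untreated mice, leaving out a library gave -1.80 to -1.41 in KO and -1.41 to -1.15 in ifKO. The ifKO value moved to -0.99 with the level of the other 9 genes as covariate and to -1.04 (-1.035) with that of the 23 genes.

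The number of the 10 genes called in KO after novelty was 0 at first (1.34% of all genes), 1 with DESeq2 (Lum; 1.93%), 2 without the low-count filter (1.15%), 1 with the block (1.23%), 2 without WT novelty 1 and KO novelty 2 (4.26%, or 705 genes against 219), 1 with the 23 genes as covariate (1.13%), and 0 to 1 with each library left out (0.866 to 1.7%). With only the groups compared it was 0, and 104 of all genes were called (0.656%). Ogn relative to the other 9 genes ran from -1.14 to -0.90 in untreated KO, from -1.73 to -0.92 in KO after novelty and from -1.004 to -0.90 in ifKO with each library left out. Of the 9 relations of Ogn within groups, Pearson called 0 to 7 and Spearman 0 to 7 with each library left out, and both 8 without KO untreated 2, WT novelty 1 and KO novelty 2. Spearman called 0 in the KO and WT libraries alone and 0 in ifKO and control alone. Among the named list genes Stra6 passed under all 14 alternatives, Cemip under 13, Dpp4 under 10, Loxl1 under 9 and Igfbp4 under 8. Cemip and Dpp4 are among the 23 genes, so the fit with that level as covariate adjusts each in part for itself. The cause of the changes between alternatives was not tested. Genes under about 1 CPM, such as Omd, were read with too few counts for a direction at this depth.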
